A study of Mus musculus with 6 samples.

Results

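The promoters of 53 developmental transcription factor genes were examined for trimethylation of lysine 4 of histone H3 (H3K4me3) in a pro-T and a pre-B cell line of the mouse, out of 21951 protein-coding genes of the GENCODE vM21 annotation. The genes were taken as a fixed list of factors best known from the development of tissues outside the lymphoid system, with 8 LIM homeodomain genes, 5 Six-family genes, 8 T-box genes, 8 *Pax* genes, 5 *Sox* genes, 3 *Gata* genes, 4 *Nkx* genes, 3 *Fox* genes, 5 basic helix-loop-helix (bHLH) genes and 4 *Otx* and *Dlx* genes. The rule that defines the list uses no measured value, but the members were chosen with earlier results of these data known. A promoter was called marked when a deposited H3K4me3 peak overlapped the 2500 bp on either side of any of the gene's annotated transcription start sites (TSSs) by at least 1 bp.

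H3K4me3 is placed around the start sites of genes by SET1 and MLL methyltransferase complexes, and it is typically found at promoters that are active or poised for transcription. CpG islands attract these complexes through CXXC zinc finger proteins, so that CpG-rich promoters are usually marked unless another system acts on them. Most developmental regulators have CpG islands, and in cells that do not use them these islands are classically bound by Polycomb complexes, which place trimethylation on lysine 27 of the same histone. Promoters called bivalent carry both marks, as the study also states. Lysine 27 trimethylation was not measured in these samples, and why a promoter is unmarked was not tested.

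The pro-T line, Scid.adh.2C2, carries the *Prkdc* scid mutation of the CB17 mice in whose thymus the parental tumour formed, and its cells are at a DN3-like stage. The other line, called the pre-B line here, is an Abelson-transformed progenitor B cell line that the study's methods describe as pre-B. Neither line received a treatment, each is a single transformed line, and 2 libraries from H3K4me3 ChIP and 1 from input chromatin were made of each. For each line 1 combined peak list was deposited by the authors, with 15513 peaks for Scid.adh.2C2 and 19604 for the pre-B line, and the lists hold no value for a single library. Depth and replicate spread are therefore unknown, no difference between the lines was tested, and an unmarked promoter is one without a peak above the thresholds the authors set. Fold enrichment over the authors' background model was compared between the lines only through its percentile, the share of all peaks of the same list with an equal or lower fold.

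The lineage labels were checked against marker genes. All 9 T cell markers were marked in Scid.adh.2C2 and 3 of 9 in the pre-B line, whereas 8 of 9 B cell markers were marked in the pre-B line and 2 of 9 in Scid.adh.2C2. None of the 6 myeloid, 6 liver and gut and 6 epithelial markers was marked in either line. Of 6 markers each, 2 erythroid and 1 neural gene were marked in each line, no cardiac or muscle gene in Scid.adh.2C2 against 1 in the pre-B line, and 1 mesenchymal gene in Scid.adh.2C2, namely *Thy1*, which is also a T cell marker, and 2 in the pre-B line.

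Few of the developmental factor promoters were marked. In Scid.adh.2C2, 6 of the 53 promoters had a peak (11.3%, Wilson 95% interval 5.29% to 22.6%), compared with 45.5% of all protein-coding genes. In the pre-B line, 7 of the 53 did (13.2%, 6.55% to 24.8%), compared with 48.2% of all protein-coding genes. Both lines together left 44 promoters without a peak (83.0%, 70.8% to 90.8%), whereas 48.6% of all protein-coding genes were marked in neither line. These intervals cover counting error only, and genes of 1 cluster share their surroundings.

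The promoters marked in both lines were those of *Lhx9*, *Six5*, *Tbx1* and *Dlx1* (4 of 53, 7.55%, against 42.2% of all protein-coding genes). *Lhx8* and *Dlx2* were marked in Scid.adh.2C2 only (3.77%, against 3.28%), and *Lhx2*, *Tbx20* and *Pax7* in the pre-B line only (5.66%, against 5.96%). The shares marked in a single line were thus close to the background, and the share marked in both was the one that stood below it. Of the 9 members marked in at least 1 line, 4 were marked in both (44.4%), whereas 82.0% of all protein-coding genes marked in at least 1 line were marked in both.

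By family, the peaks were found at 3 of the 8 LIM homeodomain genes, 2 of the 4 *Otx* and *Dlx* genes, 2 of the 8 T-box genes, 1 of the 5 Six-family genes and 1 of the 8 *Pax* genes. None of the 5 *Sox*, 3 *Gata*, 4 *Nkx*, 3 *Fox* and 5 bHLH genes was marked in either line.

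**Figure D1:**
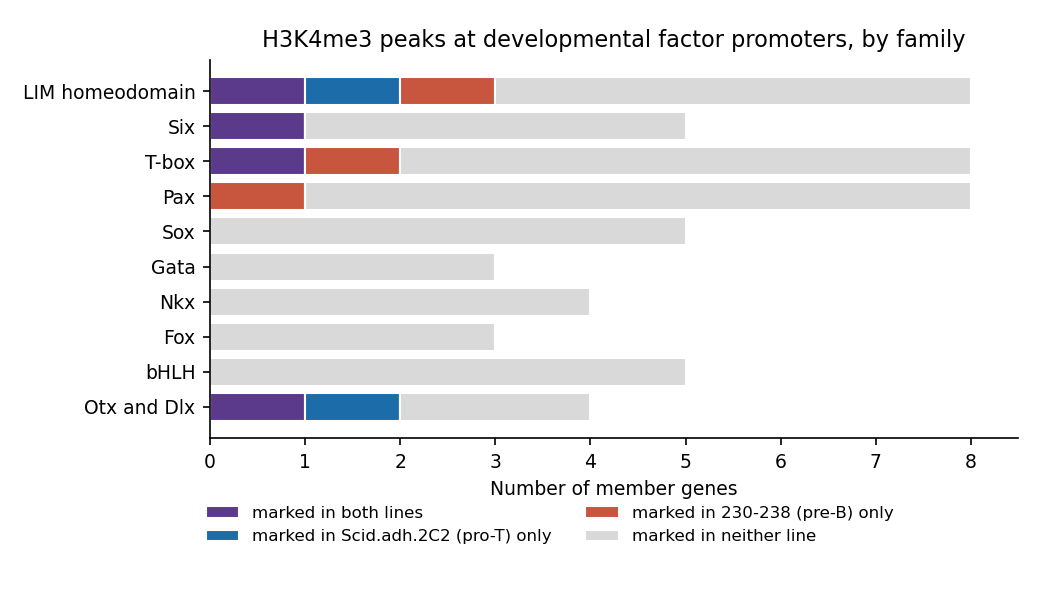
Number of listed genes (horizontal axis) in each transcription factor family whose promoter had an H3K4me3 peak in both lines, in Scid.adh.2C2 only, in the pre-B line only or in neither line. The 9 marked genes fall in 5 families, and the *Sox*, *Gata*, *Nkx*, *Fox* and bHLH rows hold unmarked genes only.

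*Dlx1*, a homeobox gene of forebrain interneurons and the pharyngeal arches, had the highest peak of the list in both lines. In Scid.adh.2C2 the peak at chr2:71525404-71531234 was 5831 bp wide and 44.2-fold enriched, rank 66 of the 15513 peaks (percentile 99.6). The pre-B peak at chr2:71528076-71531252 was 3177 bp wide and 33.4-fold enriched, rank 140 of the 19604 peaks (percentile 99.3). The 6 annotated *Dlx1* TSSs lay inside the peak in each line, and the summits were 241 bp and 220 bp downstream of the nearest of them. The peaks overlapped over 3159 bp, which is 54.2% of the Scid.adh.2C2 peak and 99.4% of the pre-B peak, so that the Scid.adh.2C2 peak extended further upstream. Beyond it, the pre-B line had separate upstream peaks at chr2:71524540-71525143 (9.99-fold) and chr2:71522459-71523746 (9.40-fold). Scid.adh.2C2 also had a separate upstream peak, at chr2:71522500-71522881 (6.04-fold). Of the 9261 protein-coding genes marked in both lines, 6, *Dlx1* included, stood at least as high in both lists. The start of the antisense transcript *Dlx1as* lies within the same window.

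*Dlx2*, the neighbour of *Dlx1* that is transcribed towards it and shares its roles in interneurons, was marked in Scid.adh.2C2 only. Its peak there, at chr2:71545568-71547343, was 27.7-fold enriched and 1776 bp wide (percentile 73.2), with both *Dlx2* TSSs inside it. No pre-B peak fell in the *Dlx2* window, and the nearest one lay 5.94 kb away with 10.1-fold enrichment. That peak, at chr2:71538411-71540006, is closest to a start of *Dlx1as*. Scid.adh.2C2 had a peak of 11.8-fold at the same place, chr2:71538459-71540265. The region between the paired genes was thus marked in both lines, and the *Dlx2* start in the pro-T line alone.

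The 300 base RefSeq promoters, 250 bases before and 50 after the start (GRCm38.p6), are shown for members that stand at the extremes of the list, with each CG dinucleotide in capitals because CpG content is compared with marking further on. *Dlx1* and *Lhx9* had the highest and the lowest mean percentile among the members marked in both lines. The first sequence (chr2:71529195-71529494, plus strand) lies 344 bp from the nearest GENCODE start and wholly inside the *Dlx1* peak of each line, and it holds 27 CG. The second (chr1:138842395-138842694, minus strand) holds 6 CG and has no base inside a peak of either line. It belongs to a start within the gene, 10 bp from the *Lhx9* TSS that lies 6123 bp past the first.
Dlx1: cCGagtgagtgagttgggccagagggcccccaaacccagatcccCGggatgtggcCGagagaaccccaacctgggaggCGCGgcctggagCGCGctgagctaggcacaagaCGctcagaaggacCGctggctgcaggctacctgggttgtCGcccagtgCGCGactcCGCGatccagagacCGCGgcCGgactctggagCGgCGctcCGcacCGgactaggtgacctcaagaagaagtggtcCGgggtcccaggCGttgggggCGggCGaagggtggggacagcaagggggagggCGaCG
Lhx9: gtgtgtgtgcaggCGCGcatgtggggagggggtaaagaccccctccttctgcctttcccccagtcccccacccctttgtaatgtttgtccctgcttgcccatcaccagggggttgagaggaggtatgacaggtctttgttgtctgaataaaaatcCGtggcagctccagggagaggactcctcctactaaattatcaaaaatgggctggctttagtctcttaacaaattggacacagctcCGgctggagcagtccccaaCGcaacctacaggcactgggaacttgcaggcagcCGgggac

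*Lhx9*, which acts in gonad formation, was marked by separate, lower peaks in the lines. Scid.adh.2C2 had 3 peaks in its windows, of 13.0-fold (559 bp, percentile 31.7), 7.44-fold and 6.78-fold enrichment, with summits 2181 bp, 1775 bp and 939 bp downstream of the nearest TSS. The pre-B line had 1 peak, at chr1:138843224-138844451, of 16.5-fold enrichment (1228 bp, percentile 54.4), with its summit 1152 bp upstream of the nearest TSS. No Scid.adh.2C2 peak in the windows overlapped the pre-B peak, and no *Lhx9* TSS lay inside any of these peaks. *Lhx9* is marked in both lines by the window rule, at different positions. Of the 4 members marked in both lines, the other 3 had overlapping peaks.

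*Tbx1*, a regulator of pharyngeal arch and thymus development that acts in the embryonic pharynx, had peaks over the same start in both lines. The Scid.adh.2C2 peak at chr16:18589723-18590918 was 11.8-fold enriched and 1196 bp wide, at percentile 28.9. The pre-B peak at chr16:18589539-18590884 was 26.8-fold enriched and 1346 bp wide, at percentile 91.8. Both peaks contained 1 of the 4 *Tbx1* TSSs and overlapped over 1162 bp. The percentile was thus 62.9 points higher in the pre-B line, and 73 of the 9261 protein-coding genes marked in both lines (0.788%), *Tbx1* included, had a gap at least as wide, with a median absolute gap of 14.4 points over all of them.

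*Six5*, which lies beside *Dmpk*, the gene of the myotonic dystrophy repeat, had 2 peaks in each line. The higher one was 20.7-fold enriched and 2027 bp wide in Scid.adh.2C2 (percentile 50.9), and 25.8-fold enriched and 1286 bp wide in the pre-B line (percentile 89.3), and it contained the single *Six5* TSS in both. The lower ones, 924 bp and 901 bp upstream, had 14.4-fold and 8.78-fold enrichment. All 4 summits were nearer to the *Six5* TSS than to a *Dmpk* TSS, although the peaks lie in windows of both genes. The percentile of *Six5* was 38.4 points higher in the pre-B line, a gap reached by 979 of the 9261 genes (10.6%). That of *Lhx9* was 22.7 points higher, a gap reached by 31.7% of them. The *Lhx9* peaks of the lines do not overlap, so this gap sets different sites side by side. Over all 9261 genes the percentile was a median of 2.73 points higher in the pre-B line. *Dlx1* differed by 0.29 points in the other direction.

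*Lhx8*, known for cholinergic forebrain neurons and for oocytes, was marked in Scid.adh.2C2 only. Its peak at chr3:154326943-154331143 was 23.7-fold enriched (percentile 60.3) and 4201 bp wide (width percentile 97.9), and it contained 4 of the 5 *Lhx8* TSSs. A start of the noncoding transcript AI606473 shares the window. In the pre-B line the nearest peak was 266 kb away, at the promoter of *Tyw3*.

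*Lhx2*, known for eye and forebrain development, was marked in the pre-B line only, by 3 peaks over its cluster of 7 TSSs. The peak at the first TSS, chr2:38339078-38340674, was 12.4-fold enriched (1597 bp). The next, of 13.1-fold (1741 bp), had its summit 328 bp from the start of the antisense transcript *Gm27197*, which is nearer than any *Lhx2* TSS. The highest, at chr2:38350001-38352213, was 14.6-fold enriched (2213 bp, percentile 47.0) and contained 2 *Lhx2* TSSs. In Scid.adh.2C2 the nearest peak was 14.9 kb away, with 6.55-fold enrichment.

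The promoters of *Lhx8* and *Lhx2*, chosen after their values were seen, are shown because each was marked in 1 line only. The *Lhx8* sequence (chr3:154330511-154330810, minus strand) holds 4 CG, and all its 300 bases are inside the Scid.adh.2C2 peak. The *Lhx2* sequence (chr2:38339031-38339330, plus strand) holds 34 CG, and 253 of its bases are inside the pre-B peak at the first TSS.
Lhx8: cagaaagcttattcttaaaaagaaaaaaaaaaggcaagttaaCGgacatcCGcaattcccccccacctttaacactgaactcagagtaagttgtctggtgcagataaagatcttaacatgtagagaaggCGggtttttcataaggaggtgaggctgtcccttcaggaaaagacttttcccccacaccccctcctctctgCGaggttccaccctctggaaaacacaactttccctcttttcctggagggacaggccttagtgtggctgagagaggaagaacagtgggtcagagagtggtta
Lhx2: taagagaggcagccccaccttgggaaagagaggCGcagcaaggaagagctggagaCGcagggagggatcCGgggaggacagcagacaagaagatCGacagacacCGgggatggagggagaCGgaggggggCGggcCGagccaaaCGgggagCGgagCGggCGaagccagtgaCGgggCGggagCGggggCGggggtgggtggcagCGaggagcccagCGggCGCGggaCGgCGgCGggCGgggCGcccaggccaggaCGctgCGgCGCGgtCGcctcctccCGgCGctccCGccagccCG

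*Tbx20*, a factor of heart development, and *Pax7*, a factor of muscle satellite cells and neural crest, had the lowest values when each member is taken by its highest peak in a line. The *Tbx20* peak in the pre-B line, chr9:24767762-24770966, was 7.94-fold enriched (percentile 13.9) but 3205 bp wide, and it contained 2 of the 4 *Tbx20* TSSs. These are starts within the gene, 4553 bp and 4623 bp past the first. The peak began 3337 bp past the first TSS, whose own window held no peak. The *Pax7* peak in the pre-B line, chr4:139835523-139836114, was 8.47-fold enriched (percentile 17.5) and 592 bp wide, and it ended 1995 bp from the nearest TSS. In Scid.adh.2C2 the nearest peaks were 265 kb from *Tbx20* and 191 kb from *Pax7*. *Pax7* was the member just inside the window. Just outside it were *Lhx3* in the pre-B line, with a peak of 8.06-fold at 3.88 kb, and *Tbx15* in Scid.adh.2C2, with a peak of 13.2-fold at 5.92 kb.

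**Figure D2:**
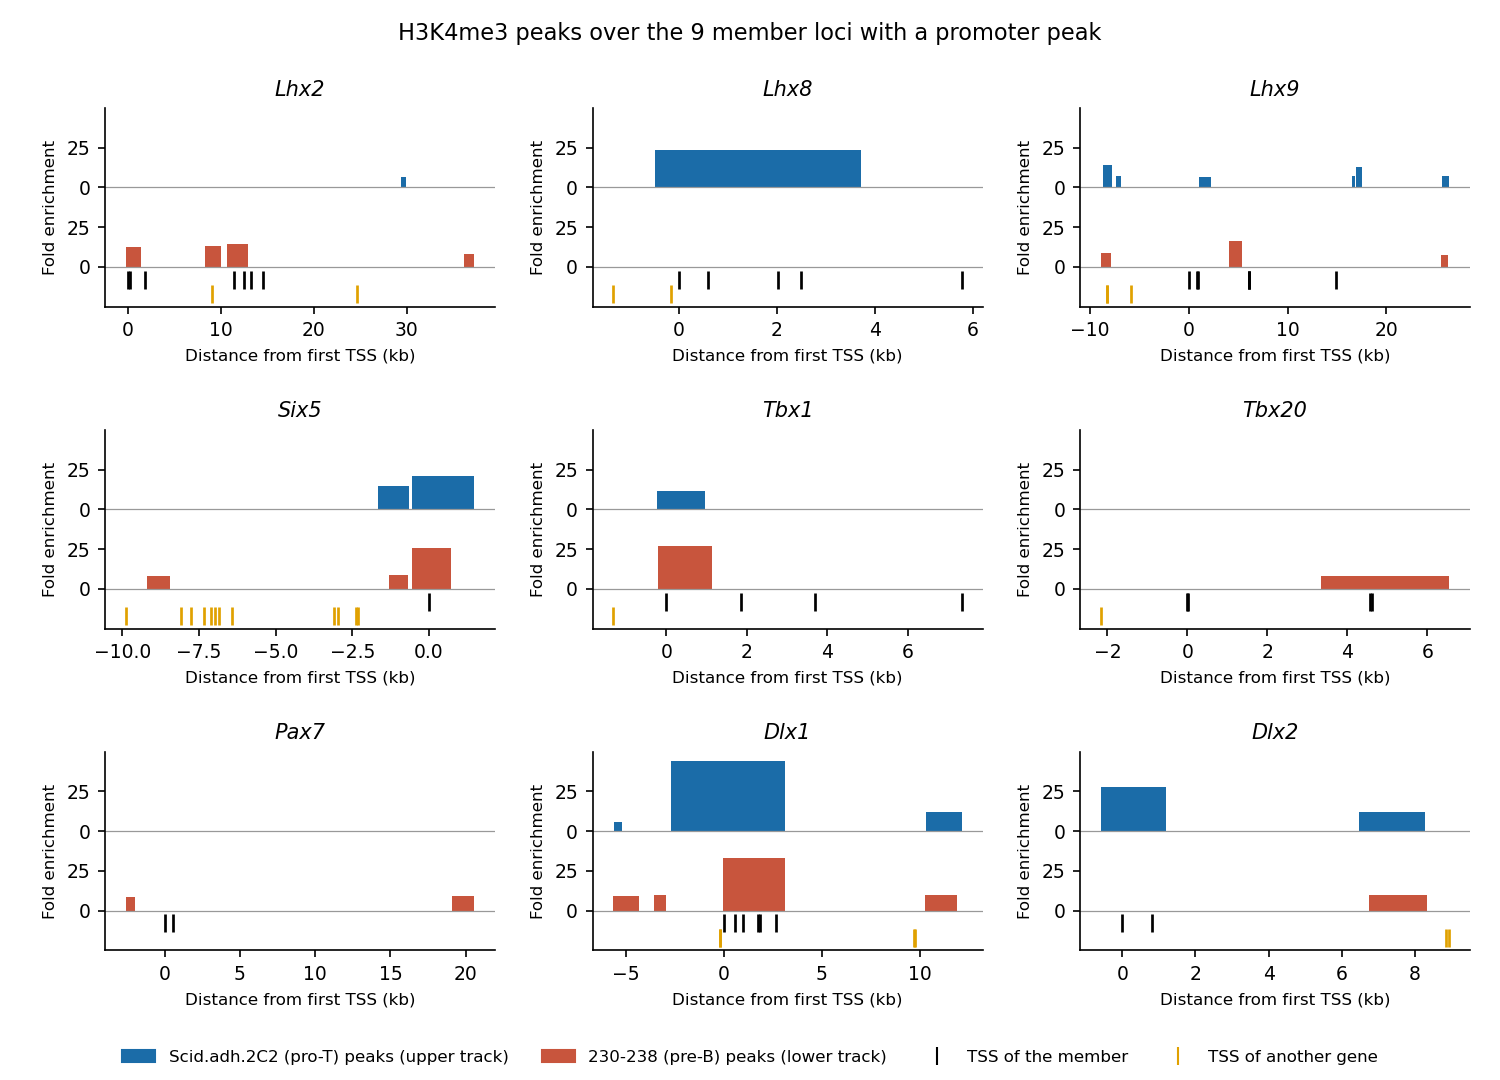
H3K4me3 peaks around the 9 member genes with a promoter peak, drawn by distance in kb from the gene's first annotated TSS in the direction of transcription (horizontal axis) and by fold enrichment (vertical axis, 1 scale for each track). The *Dlx1*, *Six5* and *Tbx1* peaks of the lines overlap, those in the *Lhx9* windows do not, and the *Lhx8* and *Lhx2* starts have peaks in 1 line only.

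All promoter peaks of the members had the highest IDR score of 1000, a measure of agreement between replicate libraries that 14513 of the 15513 Scid.adh.2C2 peaks and 18406 of the 19604 pre-B peaks shared. In Scid.adh.2C2, the highest peak of the 6 marked members had a median of 22.2-fold enrichment (range 11.8 to 44.2), at a median percentile of 55.6, beside 27.1-fold and 71.2 for all 9980 marked protein-coding genes. In the pre-B line, the 7 marked members had a median of 16.5-fold enrichment (range 7.94 to 33.4), at a median percentile of 54.4, beside 21.7-fold and 75.2 for all 10570 marked genes. The median widths were 1902 bp in Scid.adh.2C2 and 1346 bp in the pre-B line, beside 2091 bp and 2278 bp for all marked genes. The order-statistic intervals of the members' medians extend over their whole ranges at these numbers, so that a lower level than that of other marked genes cannot be read from them. With peaks of at least 10-fold, or with 1 TSS per gene, the pre-B median fold of the members was 25.8. The median of all marked genes under these settings is not given, so 25.8 is not compared with the 21.7.

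**Figure D3:**
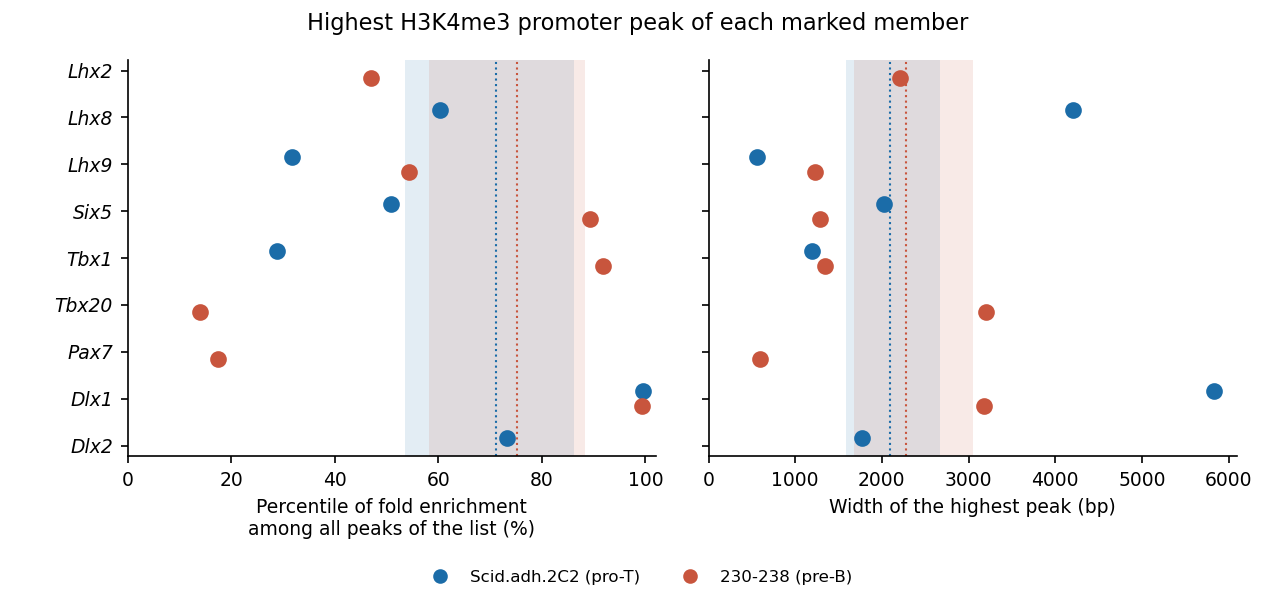
Percentile of fold enrichment within the peak list (left, %) and width in bp (right) of the highest promoter peak of each marked member, 1 point for each line, with the quartile range (shaded) and median (dotted) of all marked protein-coding genes of that line. *Dlx1* stands above percentile 99 in both lines, and *Tbx20* and *Pax7* below percentile 18 in the pre-B line.

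Most members had CpG-rich promoters, the unmarked ones included. In the 2000 bp around the TSS with the highest ratio, the median CpG observed/expected ratio of the 53 members was 0.71 (range 0.21 for *Pax4* to 0.94 for *Tbx18*), beside 0.51 for all protein-coding genes. Their median GC content was 59.1% against 51.8%, and their median number of CpG was 124 against 68, while both groups had a median of 3 TSSs per gene. A gene was called CpG-rich when any of its TSSs had a ratio of at least 0.6 and a GC content of at least 50%. By this rule 42 members were CpG-rich, and 6 of them were marked in each line (14.3%). Of the 7537 CpG-rich protein-coding genes, 71.4% and 74.2% were marked. Of the 11 other members, *Tbx20* was marked, in the pre-B line. Of the 44 members marked in neither line, 34 were CpG-rich and 10 were not. The ratio was similar in marked members (median 0.74, 9 genes) and in those marked in neither line (0.68, 44 genes).

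Within bins of the ratio the same picture held. Between 0.7 and 0.8, 4 of 17 members were marked in each line, beside 74.2% of all genes in Scid.adh.2C2 against 75.9% in the pre-B line. Between 0.6 and 0.7, 1 of 15 members was marked in each line, beside 69.4% and 72.3%. Between 0.8 and 0.9, 1 of 9 members was marked in each line, beside 75.3% and 78.3%. The number of annotated TSSs went with marking in all genes, and members with 4 or more TSSs were marked in 4 of 20 cases in Scid.adh.2C2 and 5 of 20 in the pre-B line, beside 66.1% and 69.7% of all genes with as many. Of the 15 members with 1 TSS, *Six5* alone was marked, in both lines (6.67%, 1.19% to 29.8%), an interval that includes the 19.5% and 21.4% of all genes with 1 TSS.

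**Figure D4:**
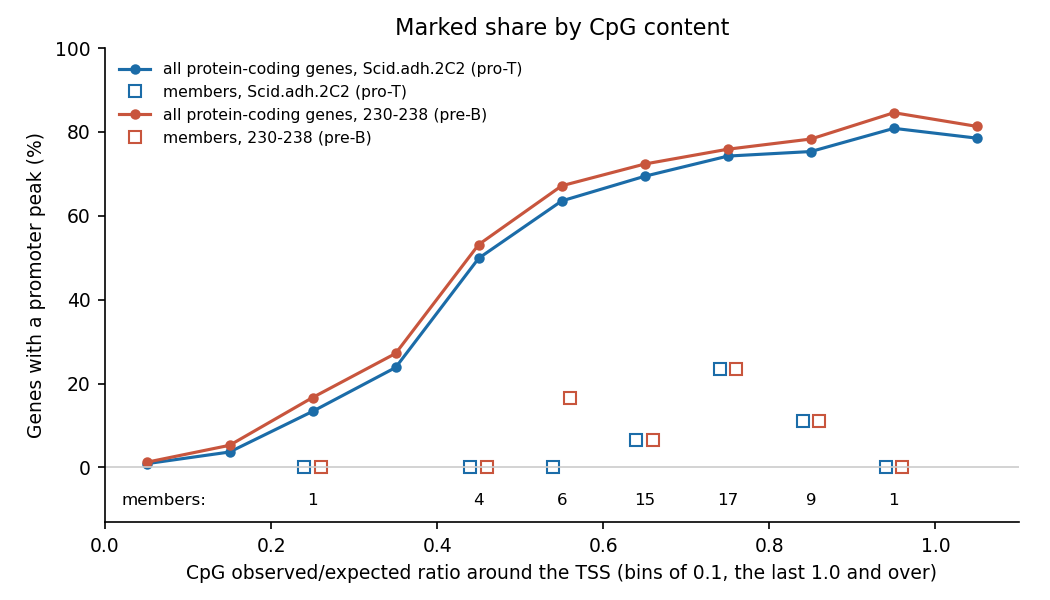
Share of genes with a promoter peak (vertical axis, %) by CpG observed/expected ratio in 2000 bp around the TSS (horizontal axis), for all protein-coding genes (lines) and for the members (squares), with the number of members in each bin beneath. From a ratio of 0.6 to 0.9, where 41 of the 53 members lie, the lines run between 69.4% and 78.3% and the squares between 6.67% and 23.5%.

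The spread of CpG content among promoters that were marked in neither line is shown by *Tbx18* and *Tbx4*, T-box genes of the epicardium and somites and of the hindlimb, which had the highest and the lowest ratio among the unmarked members with a RefSeq promoter entry. The *Tbx18* promoter (chr9:87731211-87731510, minus strand) holds 15 CG and the *Tbx4* promoter (chr11:85896515-85896814, plus strand) holds 8. The *Tbx4* sequence belongs to a start within the gene, whose first TSS is at chr11:85886422.
Tbx18: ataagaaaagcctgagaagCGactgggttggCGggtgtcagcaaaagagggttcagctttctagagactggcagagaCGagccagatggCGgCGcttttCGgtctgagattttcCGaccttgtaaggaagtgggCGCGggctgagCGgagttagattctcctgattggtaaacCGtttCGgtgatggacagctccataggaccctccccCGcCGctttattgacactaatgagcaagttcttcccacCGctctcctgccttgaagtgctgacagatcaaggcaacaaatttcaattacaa
Tbx4: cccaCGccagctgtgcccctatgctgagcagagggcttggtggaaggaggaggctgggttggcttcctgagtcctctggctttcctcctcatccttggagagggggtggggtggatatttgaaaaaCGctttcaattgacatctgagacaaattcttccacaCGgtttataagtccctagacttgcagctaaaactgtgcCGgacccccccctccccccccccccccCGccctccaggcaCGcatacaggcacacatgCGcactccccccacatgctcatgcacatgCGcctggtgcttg

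The CG dinucleotide reads the same on both strands. It was found in at least 1 copy in 95.2% of the 16522 protein-coding genes with a promoter entry, with a median of 15 copies, and in all of the 40 members with an entry, with a median of 21.5 copies and a range of 4 to 40. The short sequence of the unmarked *Tbx18* held 15 CG, and that of *Lhx8*, which was covered by a peak in Scid.adh.2C2, held 4. In the 2000 bp around the TSS with the highest ratio, the numbers of CpG were close, 132 for *Tbx18* and 133 for *Lhx8*. The short sequences of this pair therefore do not rank the CpG content of the wider promoters. The count in the *Lhx2* sequence exceeded that of 88.3% of genes.

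The unmarked LIM homeodomain genes were *Lhx1*, *Lhx3*, *Lhx4*, *Lhx5* and *Lhx6*, with roles in the head organiser and kidney, the pituitary, motor neurons and forebrain. The nearest peaks to *Lhx1* were 7.64 kb away in Scid.adh.2C2 and 7.61 kb away in the pre-B line, both at the promoter of *Aatf*. *Lhx6* had the peaks of other promoters at 30.1 kb in each line. *Lhx4* had a peak of 7.32-fold at 32.1 kb in Scid.adh.2C2 and none nearer than 181 kb in the pre-B line.

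The unmarked Six-family genes were *Six2*, *Six3*, *Six4* and *Six6*, of nephron progenitors, eye, forebrain and muscle. *Six4* lay 9.78 kb and 9.43 kb from a peak at the promoter of *Mnat1* in Scid.adh.2C2 and the pre-B line. *Six2* and *Six3*, which are neighbours, were 456 kb and 522 kb from a peak in Scid.adh.2C2, while in the pre-B line the same distal peak of 5.51-fold was nearest to both.

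The unmarked T-box genes were *Tbx2*, *Tbx3*, *Tbx4*, *Tbx5*, *Tbx15* and *Tbx18*, which pattern limbs, heart and skeleton. *Tbx15* had a peak upstream of the gene in both lines, 5.92 kb from the nearest TSS in Scid.adh.2C2 (13.2-fold) and 5.88 kb in the pre-B line (8.86-fold), and a *Tbx15* TSS was the closest annotated start to each. *Tbx2* and *Tbx4*, and *Tbx3* and *Tbx5*, are paired neighbours and shared their nearest peak within each pair in both lines, so that they do not count as separate observations of their surroundings.

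The unmarked *Pax* genes were *Pax1*, *Pax2*, *Pax3*, *Pax4*, *Pax6*, *Pax8* and *Pax9*, of sclerotome, kidney, neural crest, pancreas, eye, thyroid and pharyngeal pouches. *Pax6* had the most annotated TSSs of all members, 24, and its nearest peak was 211 kb away in both lines. *Pax4* and *Pax8* had peaks at the promoters of other genes at 21.8 kb in both lines and at 35.0 kb and 34.4 kb.

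Among the unmarked *Sox* genes, *Sox1* and *Sox2* of neural progenitors, *Sox9* of cartilage and testis and *Sox10* of neural crest lay 276 kb, 568 kb, 466 kb and 22.3 kb from a peak in Scid.adh.2C2. *Sox17*, of endoderm and endothelium, had a peak of 10.5-fold at 23.8 kb in Scid.adh.2C2, to which its own TSS was the closest start, and none nearer than 287 kb in the pre-B line. The *Gata* genes of heart and endoderm, *Gata4*, *Gata5* and *Gata6*, had their nearest peaks at 19.4 kb, 60.5 kb and 182 kb in Scid.adh.2C2 and at 34.7 kb, 60.1 kb and 157 kb in the pre-B line.

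Of the unmarked *Nkx* genes, *Nkx2-2*, a factor of the ventral neural tube and pancreatic islets, had a peak at 7.21 kb in Scid.adh.2C2 (14.6-fold) and at 7.76 kb in the pre-B line (9.94-fold), closest to *Nkx2-2os*. The thyroid and lung factor *Nkx2-1*, the heart factor *Nkx2-5* and the beta cell factor *Nkx6-1* were 189 kb, 39.7 kb and 269 kb from a peak in Scid.adh.2C2. *Foxa1* and *Foxa2* of endoderm and *Foxd3* of neural crest were 314 kb, 625 kb and 58.8 kb from one.

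The bHLH genes of neurons, oligodendrocytes and mesenchyme, *Neurog1*, *Neurog2*, *Neurod1*, *Olig2* and *Twist1*, had their nearest peaks in Scid.adh.2C2 at 13.5 kb, 78.1 kb, 55.0 kb, 147 kb and 526 kb. The pre-B distances were 72.9 kb, 59.9 kb, 54.4 kb, 122 kb and 526 kb. *Neurog1* was thus closer to a peak in the pro-T line, one of 7.90-fold. The head gene *Otx2* was 214 kb from a peak in both lines. *Dlx5*, a factor of bone and the pharyngeal arches, was 73.3 kb from one in Scid.adh.2C2 and 21.2 kb in the pre-B line.

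Over all unmarked members, the median distance from a TSS to the nearest peak was 147 kb in Scid.adh.2C2 (47 genes, order-statistic 95% interval 39.7 to 191 kb, range 5.92 to 625 kb), beside 91.5 kb for all 11958 unmarked protein-coding genes on a chromosome with peaks. In the pre-B line it was 125 kb (46 genes, 54.4 to 214 kb, range 3.88 to 568 kb), beside 91.9 kb for 11368 genes. The medians of unmarked CpG-rich genes were 68.8 kb and 67.8 kb. The members' intervals include 91.5 kb and 91.9 kb, and also 68.8 kb and 67.8 kb. A peak within 50 kb was present for 17 of 47 members (36.2%) in Scid.adh.2C2 and 15 of 46 (32.6%) in the pre-B line, against 36.5% and 37.4% of all unmarked genes. The unmarked members thus lay about as often within 50 kb of a peak as other unmarked genes.

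The summit of the peak nearest to an unmarked member lay within 1000 bp of a TSS of another annotated gene, noncoding genes included, in 31 of 47 cases in Scid.adh.2C2 (66.0%) and in 25 of 46 in the pre-B line (54.3%). The member itself had the closest TSS to that summit in 2 cases in each line, *Tbx15* and *Sox17* in Scid.adh.2C2 and *Tbx15* and *Lhx3* in the pre-B line. No share of all unmarked genes is given beside these counts, so they cannot be read as particular to the members. The members farthest from a peak were *Foxa2*, *Sox2*, *Twist1*, *Six3* and *Tbx18* in Scid.adh.2C2, at 475 to 625 kb. Those in the pre-B line were *Sox2*, *Twist1*, *Tbx18*, *Tbx3* and *Sox9*, at 390 to 568 kb.

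**Figure D5:**
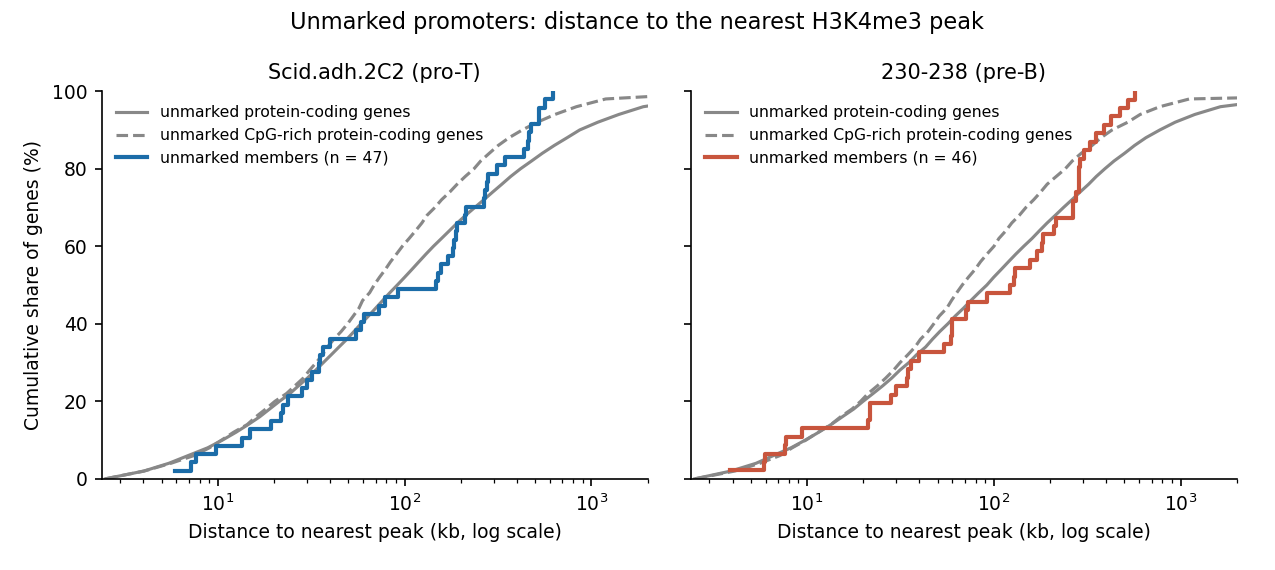
Cumulative share of genes (vertical axis, %) by distance from a TSS to the nearest H3K4me3 peak (horizontal axis, kb, log scale), for the unmarked members, all unmarked protein-coding genes and the unmarked CpG-rich genes in each line. The members' curve runs close to that of all unmarked genes up to 50 kb, and it crosses 50% at 147 kb in Scid.adh.2C2 and 125 kb in the pre-B line.

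Related protein-coding genes outside the list, 56 in number, were marked at similar rates. Of the large *Fox* and bHLH families, only further *Foxa*, *Foxd*, *Neurog*, *Neurod*, *Olig* and *Twist* genes were taken, so the rates do not describe those families. Of the 56, 7 were marked in Scid.adh.2C2 (12.5%), 8 in the pre-B line, 3 in both (*Foxa3*, *Foxd2* and *Sox4*) and 44 in neither. The highest in Scid.adh.2C2 were *Gata3*, a master regulator of T cell development, at 39.9-fold and *Foxd2* at 36.7-fold. The highest in the pre-B line were *Sox4*, a factor of lymphocyte progenitors, at 24.7-fold, *Foxd2* at 24.3-fold and *Foxa3* at 23.9-fold. *Gata3* had no promoter peak in the pre-B line.

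LIM homeodomain proteins act with LDB and SSBP cofactors, which LMO proteins also bind, and Six-family proteins act with EYA and DACH cofactors. Of 15 genes for these partners, 7 were marked in both lines (*Ldb1*, *Lmo4*, *Ssbp2*, *Ssbp3*, *Ssbp4*, *Eya2* and *Eya3*) and 7 in neither. *Lmo2* was marked in the pre-B line only, at 22.0-fold (percentile 76.3). In Scid.adh.2C2 the partners were thus marked in 7 of 15 cases (46.7%, Wilson interval 24.8% to 69.9%), beside 45.5% of all protein-coding genes. Of the members, 2 of 8 LIM homeodomain genes (7.15% to 59.1%) and 1 of 5 Six-family genes (3.62% to 62.4%) were marked. All these intervals include 45.5% and overlap, so no difference between partners and factors can be read from them.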

How the data were processed

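H3K4me3 was profiled by ChIP-seq in the Scid.adh.2C2 pro-T line and in a pre-B line, with 2 ChIP libraries and 1 input library each. The labels gave the line, antibody and replicate of every library. Per the labels and the study's methods, reads were trimmed with Trim Galore 0.6.7 and mapped to mm10 (GRCm38) with Bowtie2 2.4.4, peaks were called with MACS2 2.2.7.1 in narrow mode (q-value 0.05) with the input of the same line as control, and peaks reproducible between the libraries were kept at an IDR threshold of 0.05. The labels name 2 library kits without saying which library used which, and the study's methods name NEXTflex barcodes for Scid.adh.2C2. The score (IDR), the fold enrichment ratio, the −log10 p-value and the summit are the authors' deposited values for the combined libraries and were used unchanged, within each list. A combined list mixes the libraries, so a peak carried mainly by 1 of them cannot be recognised.

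TSSs were taken from GENCODE vM21 (GRCm38), and all peaks lay within the chromosome lengths of that build. Each member was described by its highest peak in the windows of 2500 bp on either side of its TSSs, and a peak in windows of several genes counted for each. CpG content was read from the GRCm38.p6 genome. Promoter sequences were matched by symbol in the RefSeq promoter table of GRCm38.p6 for 40 of 53 members, and all 32851 sequences of the table equalled the genome. Since there is 1 list per line, values were set side by side without a test. Wilson and order-statistic 95% intervals cover counting error only.

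The members, the marker and partner lists and the rules were chosen with earlier results of these data known. All members are named. Other genes are named by rule, as the 3 highest related genes per line (1 of them is not reported here), the partners marked in 1 line only, and genes whose TSS is nearer to a peak summit than the member's, together with the nearest and the 5 farthest unmarked members. The alternatives were windows of 1000 bp and 5000 bp, peaks of at least 10-fold, equal numbers of peaks taken by the −log10 p-value, an IDR score of 1000, the summit in the window, an overlap of 500 bp, 1 TSS per gene, TSSs of protein-coding transcripts, and peaks given to the nearest gene only. The functions were tested on simulated peaks. Computations used matplotlib 3.10.9, scipy 1.17.1, pandas 2.3.3 and numpy 2.4.6 under Python 3.11.15. The inputs were not analysed here beyond their use in that peak calling.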

Additional observations from a re-analysis of the deposited data

How the results depend on the processing

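Of 110 values recomputed under 10 alternatives, 109 stayed within 1.5 times the reported count or within the reported interval, which for the members' medians is their whole range and so sets no limit. The pre-B median fold rose from 16.5 to 25.8 with peaks of at least 10-fold and with 1 TSS per gene. The value outside these limits was the number of members marked in the pre-B line only, which was 1 with peaks of at least 10-fold enrichment, because *Tbx20* and *Pax7* have lower peaks. The number of marked members was 6 in Scid.adh.2C2 under all 10 alternatives and 5 to 8 in the pre-B line. *Pax7* was lost with a window of 1000 bp, with peaks of at least 10-fold and with equal numbers of peaks, *Tbx20* with peaks of at least 10-fold and with 1 TSS per gene, and *Lhx9* with 1 TSS per gene, while *Lhx3* was gained with a window of 5000 bp, all in the pre-B line. No paired analysis was possible because each line has 1 combined list without values for single libraries, and for the same reason no library could be left out. The depth behind a missing peak is unknown, so that weak marking below the authors' thresholds was not detectable.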

Other observations

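Peaks outside the promoter windows were present around several members. *Lhx9* had 6 peaks within 50 kb of a TSS in Scid.adh.2C2 against 3 in the pre-B line, of which 3 and 1 were the promoter peaks, and those over the start of *2310009B15Rik* were 14.0-fold enriched in Scid.adh.2C2 and 8.95-fold in the pre-B line. *Six5*, in a gene-dense region, had 4 and 7 peaks within 50 kb, and *Dlx1* had 5 in each line, promoter peaks included. The *Pax7* gene held a further peak of 9.49-fold in the pre-B line, inside the gene, and none in Scid.adh.2C2. Of the unmarked members, 30 of 47 in Scid.adh.2C2 and 31 of 46 in the pre-B line had no peak within 50 kb of a TSS. What these peaks belong to was not tested.

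Related genes outside the list were also marked in a single line. *Tbx21*, a T-box regulator of T helper differentiation, had a peak of 22.3-fold enrichment in Scid.adh.2C2, and *Pax5*, the B cell commitment factor, had one of 21.4-fold and 5848 bp in the pre-B line. *Nkx1-2* (9.12-fold) had a peak only in Scid.adh.2C2, and *Dlx6* (10.3-fold), *Sox15* (16.5-fold), *Sox8* (15.6-fold) and *Tbx19* (15.4-fold) in the pre-B line only. These genes were named after their values were seen.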
